A study of Mus musculus with 22 samples.

Results

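The comparison described here is that of livers of low-fat-fed male mice whose dams had eaten a western-type diet (WL) with livers of low-fat-fed male mice whose dams had eaten a low-fat control diet (LL). Its samples were chosen by their titles, in which the dam's diet is the first letter and the offspring's own diet the second. The titles gave 5 WL and 6 LL mice, 11 of the 22 in the series. All were C57BL/6J males of 29 weeks, and WL and LL offspring had both received the low-fat diet for 24 weeks, so that the groups differed by the labels only in the diet of the dam. Dams were put on their diet at 5 weeks of age, were mated 6 weeks later, and stayed on it through pregnancy and suckling. The remaining 11 mice received the western diet after weaning, from low-fat dams (LW, n = 5) or western-diet dams (WW, n = 6). The submitters state that 1 experimental and 1 biological outlier were excluded. The labels name no litter, so each p-value treats a mouse as independent, although mice in a group may share a dam.

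The liver takes up dietary fat and cholesterol, burns fatty acids in mitochondria and peroxisomes, builds new fat under the transcription factor SREBP-1c, and exports lipid as lipoproteins. The nuclear receptor PPAR-alpha switches on fatty acid oxidation in fasting, and a circadian clock and sex-dependent pulses of growth hormone set the level of many liver transcripts. Diet of a mother during pregnancy and lactation is widely studied as a source of lasting metabolic change in offspring, and mice that never ate the rich diet after weaning separate the mother's diet from the offspring's own.

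RNA from each liver was hybridised to its own Illumina BeadChip, a 1-colour array on which probe brightness reads out transcript level. Values below are log2 of the background-corrected, quantile-normalized intensity, so that a difference of 1 is 2-fold, and differences near background are compressed. Of 45281 probes, 14140 (31.2%) were detected (detection p under 0.05) on at least 5 of the 11 arrays and were tested, and these gave 8822 named genes, each read by its brightest probe. Hepatocyte markers were present, with log2 intensities of 14.98 in LL and 15.07 in WL for the apolipoprotein Apoa1, 15.08 and 15.11 for the fetuin Ahsg, and 14.20 and 14.29 for transthyretin. The albumin probe was dim, at 6.85 and 6.64. The 11 arrays detected 13818 to 14840 probes, and their mean intensity was 151 on LL replicate 1 and 200 to 268 on the others (exact two-sided permutation test of WL against LL over 462 splits, p = 0.442 for mean intensity and p = 0.903 for detected probes, with 0.00216 the smallest p possible). Groups were spread unevenly over 4 slides: slide 1 held LL replicate 1 as its only array of this comparison, slide 2 held WL replicates 1 and 2, slide 3 held WL replicates 3 and 4 with LL replicates 2 and 3, and slide 4 held WL replicate 5 with LL replicates 4, 5 and 6. LL replicate 1 and WL replicate 5 stood apart from the rest, with weights of 0.291 and 0.556 when arrays were weighted by their agreement with their group. Values without them, and within slides 3 and 4, are given beside several of the results that moved, and leaving out LL replicate 1 moved the differences of 10 of 88 genes described by over 1.5 times, and leaving out WL replicate 5 those of 16. In whole liver, fewer cells of a type and less RNA per cell cannot be told apart.

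No probe passed a Benjamini-Hochberg adjusted p of 0.05 in WL against LL (limma, 0 of 14140, 0%). The smallest adjusted p was 0.102, shared by the probe of Dip2c and 1 probe with no current gene name, and 3 probes were under 0.2. At an unadjusted p under 0.05 stood 738 probes (5.22%), 381 of them higher in WL (2.69%) and 357 lower (2.52%). With the deposited normalized values in the same limma test, 0 probes passed after adjustment and 909 stood under an unadjusted 0.05. The 0 rested in part on single mice: without WL replicate 4 the probe of Arrdc3 passed (adjusted p = 0.0108), without LW replicate 5, which enters only the shared estimate of spread, Dip2c and the unnamed probe passed (0.0451), and without LL replicate 2 the unnamed probe passed (0.0253).

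Differences were mostly small. The median absolute difference over probes was 0.107 log2, 95 in 100 probes lay within 0.364, and 14 differed by more than 1, 8 higher and 6 lower in WL. The median standard error was 0.160. The 95% interval of the difference stayed inside 1 log2 unit for 98.1% of the tested probes and inside 0.5 for 62.7%, so a change of more than 2-fold was outside the interval for nearly all tested probes, whereas smaller differences could be missed with these numbers of mice. Groups did not overlap for 60 of 14140 probes (0.424%; 36 with WL above, 0.255%, and 24 with WL below, 0.17%) and for 33 of 8822 genes (0.374%), 20 with all WL above all LL and 13 with all WL below. The genes described next are the 12 higher and 12 lower in WL with the smallest p. They were chosen by this contrast, so their values describe it and none passed the adjusted test. Their sizes depended on the processing, and each was smaller with the deposited values. The deposited values lie on another scale, with array medians near 245, on which differences of dim genes may be more compressed. How much of the change this makes was not tested. The deposited values gave 0.54 in place of 1.33 for Arrdc3, 0.57 in place of 1.26 for Cxcl1 and 0.14 in place of 1.02 for Gna14. Dip2c had 0.055 in place of 0.65, Mfsd2a -1.08 in place of -1.73, Acot2 -0.095 in place of -1.0 and Cdkn1a -0.47 in place of -1.41.

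**Figure D1:**
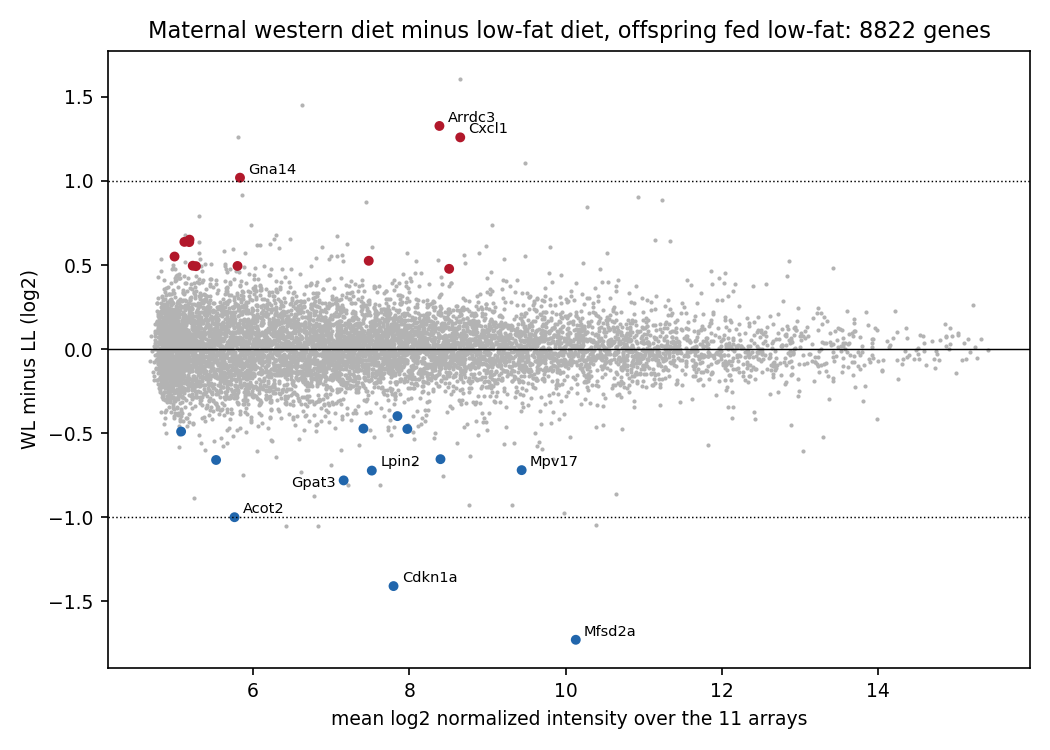
Each point is 1 of 8822 genes, placed by its mean log2 intensity over the 11 arrays (x) and its log2 difference WL minus LL (y). Red and blue points are the 12 higher and 12 lower genes with the smallest p, and dotted lines mark a difference of 1. Most genes lie close to 0, and Mfsd2a (-1.73) and Cdkn1a (-1.41) are the lowest points.

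Of the 12 genes higher in WL, Arrdc3, Cxcl1 and Gna14 had the widest differences. Arrdc3, an arrestin-domain protein that acts on beta-adrenergic receptors, was at 9.61, 9.10, 9.25, 8.09 and 9.50 in WL replicates 1 to 5. In LL its lowest, median and highest values were 7.51, 7.73 and 8.22. WL replicate 4 lay among the LL mice and the other 4 WL mice lay above all of them. The log2 difference was 1.33 ± 0.26 SE (adjusted p = 0.132, 2.51-fold), and it was 0.60 on slide 3 and 1.92 on slide 4. Gna14, a G protein alpha subunit of the Gq class, had WL values of 6.71, 6.20, 6.63, 6.18 and 6.24. Its LL values ran from 4.51 through a median of 5.54 to 5.73. The groups did not overlap, and LL replicate 1 was the lowest of all, with a difference of 1.02 ± 0.25 SE (adjusted p = 0.537), 1.00 on slide 3 and 0.60 on slide 4. Dip2c, a member of the disco-interacting protein 2 family, had WL values of 5.57, 5.62, 5.32, 5.65 and 5.55, all above the LL values of 4.73, 4.85 and 5.10 (lowest, median and highest). Its difference was 0.65 ± 0.12 SE (adjusted p = 0.102). Since Dip2c was detected on only 3 of 6 LL arrays, this difference is compressed.

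Cxcl1, which encodes a chemokine that attracts neutrophils, was at 9.10, 9.42, 9.69, 9.73 and 8.76 in the WL mice. LL mice had a lowest value of 7.14, a median of 8.20 and a highest of 8.84. WL replicate 5 fell just below the highest LL mouse and the other 4 WL mice lay above the LL range. The difference was 1.26 ± 0.30 SE (adjusted p = 0.537, 2.39-fold), 1.26 on slide 3 and 0.61 on slide 4, and without LL replicate 1, its lowest LL value, it was 1.07. Inflammatory transcription of Cxcl1 is known to run through NF-kB, so the 250 bases before its start are shown (RefSeq, GRCm38.p6, chr5:90890995-90891244, plus strand, 5′ to 3′), with matches to the NF-kB consensus motif in capitals. They overlap, starting 71 bases before the start site on the gene's strand and 70 on the other.
Cxcl1: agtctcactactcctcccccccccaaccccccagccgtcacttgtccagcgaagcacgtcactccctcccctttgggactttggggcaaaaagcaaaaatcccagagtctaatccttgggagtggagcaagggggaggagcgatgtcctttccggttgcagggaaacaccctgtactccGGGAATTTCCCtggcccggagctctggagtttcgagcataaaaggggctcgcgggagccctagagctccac
The consensus, searched on both strands, lies in 3.9% of 32851 promoters of the same length. A match describes the sequence only. Nfkb1, an NF-kB subunit, had a difference of 0.24 ± 0.12 SE (adjusted p = 0.961).

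The other genes in this group were of several kinds and of smaller difference. Lrig1, a membrane protein that restrains EGF receptor signalling, was at 7.93, 7.77, 7.71, 7.60 and 7.83 in WL against 6.96, 7.32 and 7.48 (lowest, median and highest) in LL. Whamm, which promotes actin branching on membranes, was at 8.86, 8.56, 8.67, 8.69 and 9.07 against 8.08, 8.31 and 8.46. Neither gene's groups overlapped, and the differences were 0.53 ± 0.14 SE and 0.48 ± 0.13 SE (adjusted p = 0.686 for both). Homez, a homeobox and leucine zipper protein (0.49 ± 0.14 SE), Zfp868, a zinc finger protein (0.55 ± 0.12 SE), and the WD-repeat gene Wdr93 (0.49 ± 0.14 SE) also had WL values wholly above LL. Chd6, a chromodomain helicase that remodels chromatin (0.50 ± 0.13 SE), Ppm1j, a PP2C-family phosphatase (0.64 ± 0.17 SE), and Ppp1r14b, an inhibitor of protein phosphatase 1 (0.64 ± 0.17 SE), overlapped with LL in 1 or more mice. Zfp868 was detected on only 1 of 6 LL arrays, and Ppm1j and Ppp1r14b, like Dip2c, on 3 of 6. These genes passed the detection filter only with the WL mice, in which they were higher, so their differences are not independent of it. In total 7 of the 12 genes had groups that did not overlap, against 0.374% of all genes. Since the 12 were chosen for a small p, this count is largely built in. Adjusted p-values ran from 0.102 to 0.732.

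Of the 12 genes lower in WL, Mfsd2a, Acot2, Lpin2 and Gpat3 act on fatty acids or glycerolipids. Mfsd2a carries lysophosphatidylcholine with long-chain fatty acids, among them docosahexaenoic acid, into cells, and in liver it is known to be induced by fasting. Its WL values were 8.35, 10.40, 9.16, 9.42 and 8.61, and LL mice ran from 10.19 through a median of 10.71 to 12.04. WL replicate 2 lay inside the LL range and the other 4 WL mice lay below it. The difference was -1.73 ± 0.37 SE (3.32-fold lower in WL, adjusted p = 0.347), -1.83 on slide 3 and -2.17 on slide 4. The 250 bases before its start are shown as the promoter of the gene with the largest difference (RefSeq, GRCm38.p6, chr4:122961189-122961438, minus strand, 5′ to 3′ in the gene's direction), with the only match to the motifs searched in capitals, a CCAAT box that reads ATTGG on this strand, 54 bases before the start.
Mfsd2a: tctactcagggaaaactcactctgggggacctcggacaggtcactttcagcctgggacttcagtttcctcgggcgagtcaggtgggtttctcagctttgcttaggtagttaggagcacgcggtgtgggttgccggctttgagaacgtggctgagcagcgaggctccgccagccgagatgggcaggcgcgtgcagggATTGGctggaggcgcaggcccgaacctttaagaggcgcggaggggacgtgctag
CCAAT, on either strand, lies in 33.8% of the 32851 promoters. TATAAA (12.4%), GGGCGG (32.7%) and CACGTG (6.02%) were also searched on both strands and lie in neither of the windows shown.

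Acot2, a mitochondrial acyl-CoA thioesterase, was at 4.56, 5.06, 4.88, 5.34 and 6.26 in the WL mice. LL values were 5.67, 6.23 and 6.65 (lowest, median and highest). WL replicate 5 lay among the LL mice, and the other 4 lay below all of them. Its difference was -1.0 ± 0.24 SE (adjusted p = 0.537), -1.15 on slide 3 but 0.11 on slide 4, where the WL side is WL replicate 5 alone. Lpin2, a phosphatidate phosphatase that makes diacylglycerol, had WL values of 6.98, 7.74, 6.84, 6.96 and 7.11 against LL values of 7.31, 7.78 and 8.36. WL replicate 2 was the only WL mouse inside the LL range (-0.72 ± 0.19 SE, adjusted p = 0.686). Gpat3, a glycerol-3-phosphate acyltransferase that starts glycerolipid assembly, was at 6.08, 7.39, 6.92, 7.31 and 5.97 against 7.24, 7.51 and 7.90, with WL replicates 2 and 4 inside the LL range (-0.78 ± 0.22 SE, adjusted p = 0.717). Its second probe gave -0.74, and the second probe of Lpin2 gave -0.35.

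Cdkn1a encodes p21, an inhibitor of cyclin-dependent kinases, and was at 6.08, 8.68, 6.34, 7.13 and 6.92 in WL and 7.72, 8.27 and 9.62 (lowest, median and highest) in LL. WL replicate 2 was as high as the LL mice and the other 4 were below all of them. The difference was -1.41 ± 0.41 SE (2.66-fold lower, adjusted p = 0.780), -2.37 on slide 3 and -0.89 on slide 4, and the 2 other Cdkn1a probes gave -0.82 and -0.50. Mpv17, an inner mitochondrial membrane protein needed to keep mitochondrial DNA, had WL values of 8.57, 9.63, 8.30, 9.45 and 9.28 and LL values of 9.56, 9.76 and 10.01 (-0.72 ± 0.21 SE), and its 4 other probes gave -0.56 to -0.34. As3mt, the arsenite methyltransferase, differed by -0.65 ± 0.17 SE, and its second probe by -0.34. Krit1, a scaffold protein of endothelial junctions (-0.66 ± 0.19 SE), and Tbc1d20, a GTPase-activating protein for Rab1 (-0.47 ± 0.13 SE), were the 2 lower genes whose groups did not overlap. Med16, a subunit of the Mediator complex (-0.40 ± 0.12 SE), Smim1, a small membrane protein (-0.48 ± 0.14 SE), and Zfp24, a zinc finger transcription factor (-0.49 ± 0.15 SE), completed the group. Adjusted p-values of the 12 lower genes ran from 0.347 to 0.884.

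**Figure D2:**
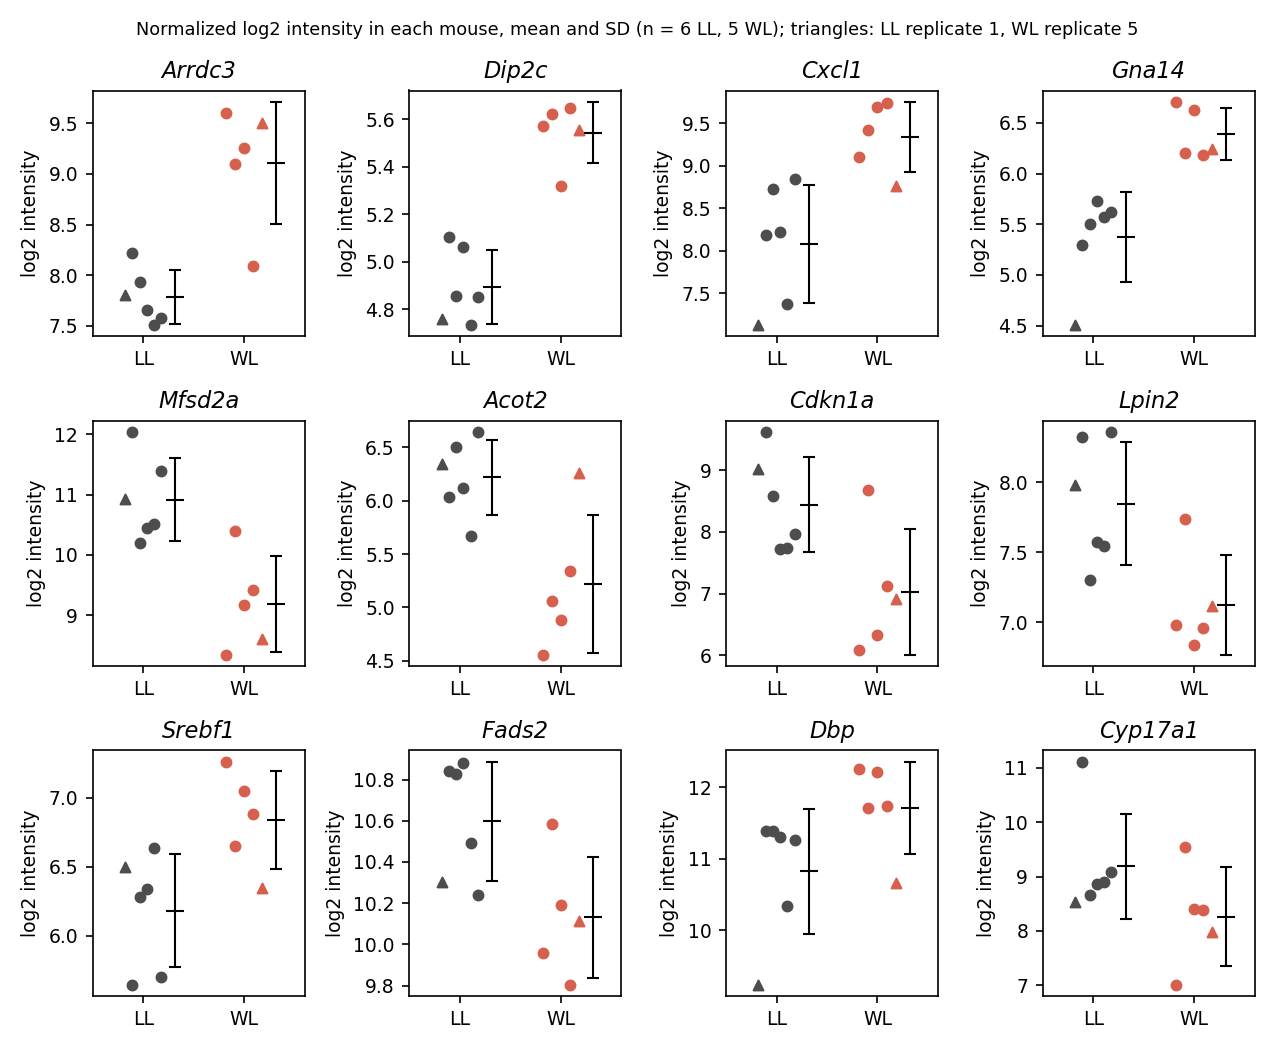
Each panel shows the normalized log2 intensity of 1 gene (y) in every LL and WL mouse, with group mean and SD beside the points (n = 6 and 5). Triangles mark LL replicate 1 and WL replicate 5. In Dip2c and Gna14 the groups do not overlap, while in Arrdc3, Mfsd2a, Acot2, Cdkn1a and Lpin2 a single WL mouse lies inside the LL range.

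In total 13 genes differed by more than 1 log2 unit, and 7 of them were not among the 24. Acot3 is given with the fatty acid oxidation genes, and the other 6 are named here after their values were seen. Rgs16, a regulator of G protein signalling, had the largest positive difference (1.61 ± 0.66 SE, limma adjusted p = 0.925), with WL values of 10.69, 10.28, 9.94, 8.57 and 8.15 and LL values from 5.94 through a median of 8.29 to 9.45. The difference of Rgs16 was 0.82 with slide as a fixed block, 1.16 with slide as a random block and 0.38 with the deposited values. Isoc2a, an isochorismatase-domain protein, was at 8.58, 7.13, 9.39, 5.77 and 6.23 in WL against 5.34, 6.07 and 6.52 in LL. Mpst, a mercaptopyruvate sulfurtransferase, was at 8.03, 6.31, 8.10, 4.94 and 5.11 against 4.77, 5.17 and 5.74. For both genes WL replicates 1 and 3 were the highest of the 11 mice, and WL replicates 4 and 5 lay inside the LL range. Hsd17b11, a hydroxysteroid dehydrogenase found on lipid droplets, showed the same order (1.11 ± 0.55 SE, 0.61 without WL replicate 3 and 1.53 without WL replicate 4), with WL values of 11.12, 9.76, 12.08, 8.40 and 9.04. Differences of Isoc2a and Mpst were 1.45 ± 0.57 SE and 1.26 ± 0.53 SE (adjusted p = 0.919 and 0.944), and on slide 3 they were 2.20 and 1.35 while on slide 4 they were -0.18 and 0.0034. Without WL replicate 3 the difference of Isoc2a was 0.96, and with the deposited values it was 0.34, and that of Hsd17b11 0.57. Fkbp5, a glucocorticoid-induced co-chaperone (-1.05 ± 0.39 SE), and Trim80, a tripartite-motif gene (-1.05 ± 0.35 SE), were lower in WL. With the deposited values Fkbp5 had -0.29. Trim80 had -0.74 without WL replicate 5 and -0.52 without both LL replicate 1 and WL replicate 5. Tsc22d3, another glucocorticoid-induced gene, had -0.57 ± 0.27 SE (-0.38 without LL replicate 2). For Fkbp5 the LL range of 6.05 to 8.69 enclosed 4 of the 5 WL values, which were 6.33, 6.55, 5.74, 6.46 and 6.23.

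Gene lists covering liver metabolism, immune cells and stress were then described by their counts and medians. Over all 8822 genes the median difference was 0.0061, 51.6% were higher in WL, and 411 (4.66%) stood under an unadjusted p of 0.05, 222 higher (2.52%) and 189 lower (2.14%). Of 40 lists, none had a member that passed the adjusted test, and 19 kept the sign of their median under all 36 alternative settings tried. Leaving out 1 of the 11 mice moved the median by over 1.5 times in 38 of the 40 lists. Several medians lie near 0, as for proteasome subunits (-0.00011), and there a small shift exceeds this ratio. The count alone therefore does not measure how far list sizes rest on single mice, and values without single mice are given for several lists.

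Genes of cholesterol synthesis were mostly lower in WL: 16 of the 20 tested had values below LL and 4 above, with a median of -0.13 log2. None stood under an unadjusted p of 0.05. Averaged over the list, differences from the LL mean ran from -0.41 to 0.21 in WL mice and from -0.41 to 0.31 in LL mice, so the groups overlapped. Genes of 1 pathway can move together in a mouse, so the 20 are not independent. The median was -0.22 on slide 3 and -0.44 on slide 4, where WL replicate 5 is the only WL mouse. Without LL replicate 1 and WL replicate 5 the median was -0.18, it was -0.25 to -0.083 when 1 mouse was left out, and -0.025 with the deposited values. Nsdhl, a sterol dehydrogenase of the pathway, differed by -0.55 ± 0.36 SE, with LL mice spread from 5.35 to 7.37. Sc5d, the sterol C5-desaturase, had values above LL on average (0.31 ± 0.20 SE). The groups overlapped for both genes. In the list of lipoprotein and sterol export 12 of 20 were lower (median -0.072). The phospholipid transfer protein Pltp was at 6.97, 6.94, 7.05, 7.04 and 5.95 in WL and 6.16, 7.41 and 7.68 (lowest, median and highest) in LL (-0.47 ± 0.23 SE, and -0.26 without WL replicate 5), with LL replicate 1 and WL replicate 5 far below the others of their group. The transporter subunits that secrete sterols into bile differed by 0.096 ± 0.16 SE for Abcg5 and 0.31 ± 0.19 SE for Abcg8 (0.17 without LL replicate 3).

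Fat synthesis had no common direction, with 8 of 19 lipogenic genes higher and 11 lower (median -0.016). At an unadjusted p under 0.05 stood 2 in each direction (21.1% of the list, against 4.66% of all genes). Srebf1, which encodes SREBP-1c, was at 7.26, 6.65, 7.05, 6.88 and 6.34 in WL. LL values were 5.65, 6.31 and 6.63 (lowest, median and highest). Of the WL mice, 4 lay above all LL mice, and WL replicate 5 lay inside their range (0.65 ± 0.24 SE, adjusted p = 0.902, 1.00 on slide 3 and 0.12 on slide 4). Fasn, the fatty acid synthase and a textbook target of SREBP-1c, was near background (0.36 ± 0.14 SE, detected on 2 of 6 LL and 4 of 5 WL arrays). It passed the detection filter only with the WL mice, so its place among the 2 higher under 0.05 is not independent of that filter. Fads2, the delta-6 desaturase of polyunsaturated fatty acids, was at 9.96, 10.59, 10.19, 9.80 and 10.11 in WL against 10.24, 10.66 and 10.88 in LL (-0.47 ± 0.16 SE, -0.84 on slide 3 and -0.42 on slide 4), and 4 of the 5 WL mice were below every LL mouse. Gpam, the mitochondrial glycerol-3-phosphate acyltransferase, was also lower in value (-0.42 ± 0.16 SE). With slide as a block the list median was -0.20, and without LL replicate 1 and WL replicate 5 it was 0.030.

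In fatty acid oxidation 20 of 26 genes were lower in WL and 6 higher (median -0.072), and 3 of the lower stood under an unadjusted p of 0.05 (11.5%, against 4.66% of all genes). These were Acot2, Pdk4 and Acot3. Pdk4, the kinase that shuts pyruvate dehydrogenase in fasting, was at 5.67, 6.88, 6.34, 6.72 and 5.91 in WL and 5.94, 7.45 and 8.15 (lowest, median and highest) in LL, with all 5 WL values inside the LL range or just below it (-0.87 ± 0.37 SE). Acot3, a peroxisomal acyl-CoA thioesterase, was at 9.58, 9.89, 10.59, 10.13 and 8.91 against 10.33, 10.87 and 11.68 (-1.04 ± 0.46 SE, -0.57 on slide 3 and -2.05 on slide 4). Acot4, another peroxisomal thioesterase, differed by -0.49 ± 0.25 SE. Thioesterase probes of this family may share signal, since the genes are close copies. As a score for the list, differences from the LL mean were averaged over its genes, giving -0.37, -0.17, -0.23, -0.39 and 0.10 in WL replicates 1 to 5. In LL it ran from -0.14 to 0.30, with LL replicate 6 highest. This score is a mean, so a few genes with wide differences, Acot2, Acot3 and Pdk4 among them, weigh heavily in it. Its mean in WL was -0.21, beside the list median of -0.072. WL replicates 1 to 4 lay below the whole LL range and WL replicate 5 did not. Without it the median was -0.13, and on slide 4, where it is the only WL mouse, the median was 0.071. Ppara itself differed by -0.077 ± 0.18 SE. Among genes of lipid droplets and PPAR-gamma targets 10 of 14 were lower (median -0.031), including Plin5, which ties droplets to mitochondria (-0.39 ± 0.21 SE), and G0s2, an inhibitor of the lipase ATGL (-0.35 ± 0.22 SE, and -0.21 without WL replicate 5). Pparg differed by 0.37 ± 0.34 SE, and was lowest in LL replicate 1 and WL replicate 5 (0.062 without the first and 0.75 without the second). The median of this list was -0.20 without LL replicate 1.

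Clock genes were mostly higher, 10 of 13 with a median of 0.19. Of the 13, 4 stood under an unadjusted p of 0.05 (30.8%, against 4.66% of all genes). Dbp, Cry2 and Nr1d2 were the 3 higher, and Tsc22d3, given above, was the 1 lower. Dbp, a clock-driven transcription factor with one of the strongest daily rhythms in liver, was at 12.25, 11.71, 12.22, 11.73 and 10.66 in WL and 9.24, 11.29 and 11.39 (lowest, median and highest) in LL. WL replicate 5 lay among the LL mice and the other 4 WL mice lay above them, and LL replicate 1 was the lowest (0.89 ± 0.33 SE, and 0.57 without LL replicate 1). The cryptochrome Cry2 differed by 0.40 ± 0.17 SE. Nr1d2, a repressor of the clock, was detected on 5 of 5 WL and 0 of 6 LL arrays, so it passed the detection filter only through the WL mice. Its higher value in WL, counted among the 10 and among the 3 under 0.05, is therefore not independent of the filter. The LL mean of 4.61 was at background against 5.07 in WL, at least 1.15-fold higher (limma adjusted p = 0.919). This lower bound takes no account of the spread between mice. The clock score was -0.39 in WL replicate 5 and 0.14 to 0.56 in the other 4 WL mice, while LL mice ran from -0.36 to 0.55, so the groups overlapped. The median was 0.090 without LL replicate 1, 0.44 without WL replicate 5, -0.31 on slide 4 and 0.013 both with slide as a fixed block and with the deposited values. The labels used here give no hour of sampling. Glucose and insulin genes were divided, 11 higher and 8 lower (median 0.044), with lower values for G6pc, glucose-6-phosphatase (-0.57 ± 0.32 SE), and for Ppp1r3b, the glycogen-targeting subunit of protein phosphatase 1 (-0.47 ± 0.22 SE).

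**Figure D3:**
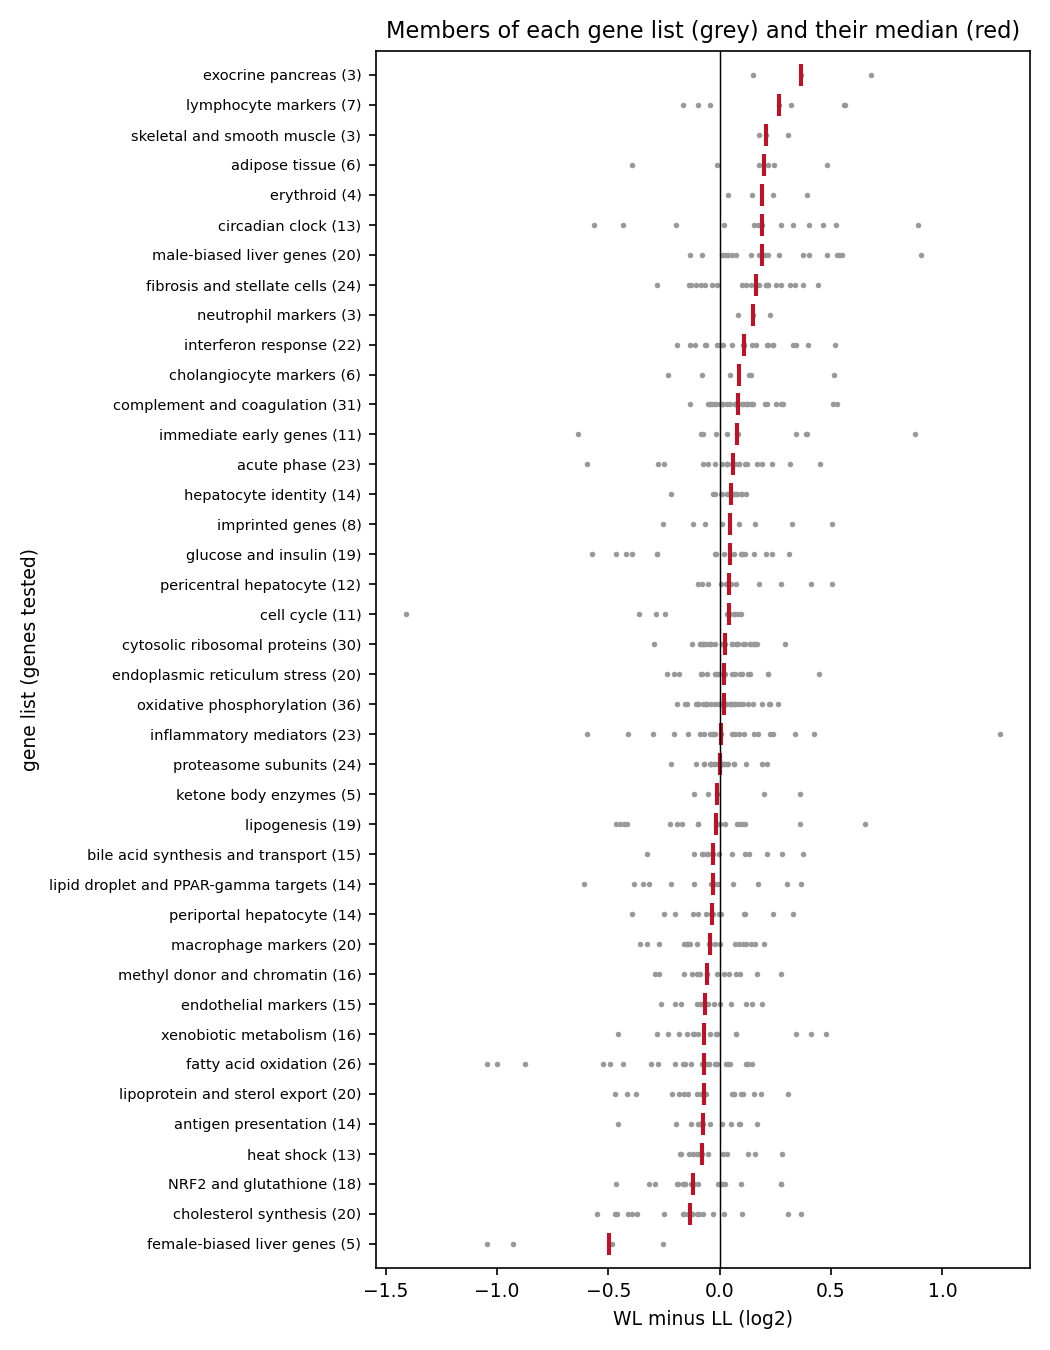
Grey points are the log2 differences WL minus LL (x) of the tested genes of each of 40 lists (y, number tested in brackets), and red bars are list medians. Medians run from -0.50 for 5 female-biased liver genes to 0.36 for 3 exocrine pancreas genes, and most lie within 0.2 of 0.

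Liver genes that differ between sexes gave one-sided counts, all mice here being male. Of 20 male-biased genes tested 18 were higher in WL (median 0.19), and 1 (5%) stood under an unadjusted p of 0.05. Of 20 female-biased genes listed only 5 were tested, and all 5 were lower (median -0.50). Of these 5, 3 stood under 0.05 (60%, against 4.66% of all genes), a share that rests on few genes. Selenbp2, a selenium-binding protein, was at 9.23, 8.75, 9.08, 9.56 and 10.91 in WL and 8.62, 8.81 and 9.65 (lowest, median and highest) in LL (0.54 ± 0.27 SE, and 0.19 without WL replicate 5). Nudt7, a peroxisomal coenzyme A hydrolase, differed by 0.48 ± 0.20 SE (0.31 without LL replicate 1), and Mup4, a major urinary protein, by 0.55 ± 0.33 SE (0.35 without WL replicate 5). Probes of the Mup and Cyp2b families may share signal between copies. Cyp17a1, a steroid hydroxylase, was at 7.01, 9.55, 8.40, 8.37 and 7.98 in WL against 8.52, 8.88 and 11.12 in LL (-0.93 ± 0.41 SE, -0.61 without WL replicate 1 and -0.54 without LL replicate 2, its highest value). Abcd2, a peroxisomal fatty acid transporter, differed by -0.48 ± 0.18 SE and Tox, a nuclear HMG-box protein, by -0.25 ± 0.18 SE (-0.092 without WL replicate 5), and Acot3 belonged to this list as well. WL replicate 5 was the extreme mouse in both lists. Its male-biased score was 0.90, where the other WL mice had -0.16 to 0.26 and LL mice -0.40 to 0.41, and its female-biased score was -2.03, where the other WL mice had -0.90 to 0.082 and LL mice -0.96 to 0.82. Cyp2b9, a female-typical cytochrome P450, was at 9.91, 11.05, 11.41, 9.64 and 4.69 in WL and 5.99, 10.30 and 11.62 in LL, with WL replicate 5 and LL replicate 1 far below the rest (-0.50 ± 0.96 SE, 0.67 without WL replicate 5 and -1.27 without LL replicate 1). Without WL replicate 5 the male-biased median was 0.040 and the female-biased median -0.37. Without LL replicate 1 these medians were 0.22 and -1.06, and with slide as a random block the female-biased median was -0.94.

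**Figure D4:**
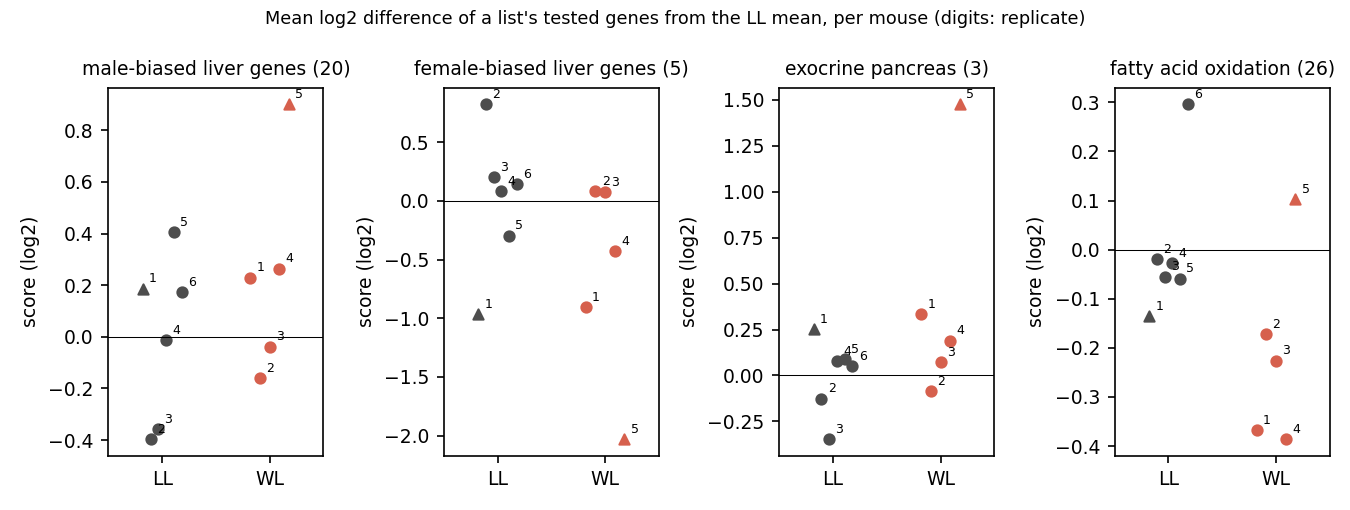
Points are list scores (y, mean log2 difference of the tested genes from the LL mean) of each LL and WL mouse, with digits for the replicate and triangles for LL replicate 1 and WL replicate 5. WL replicate 5 is highest for male-biased genes (0.90) and exocrine pancreas (1.48) and lowest for female-biased genes (-2.03), and 4 of 5 WL mice lie below the LL range for fatty acid oxidation. A few genes with wide differences weigh heavily in that last score.

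The series asks about liver inflammation, and in low-fat-fed offspring inflammatory genes were split in direction. Of 23 inflammatory mediators 12 were higher in WL and 11 lower (median 0.0065), with Cxcl1 the 1 member under an unadjusted p of 0.05. Saa1, an acute-phase serum amyloid, was at 10.72, 12.90, 12.93, 13.02 and 11.26 in WL and 11.02, 12.32 and 13.14 (lowest, median and highest) in LL (-0.073 ± 0.44 SE). Macrophage markers were 8 higher and 12 lower (median -0.044), with Cd68 at 7.39, 8.13, 7.50, 7.87 and 7.21 in WL and 7.26, 7.43 and 8.40 in LL (0.00018 ± 0.24 SE). LL replicate 3 stood out in macrophage score (0.72, the next LL mouse being at -0.015), and without it the median was 0.056. Fcgr1, a high-affinity immunoglobulin receptor of macrophages, differed by -0.36 ± 0.19 SE and was detected on 5 of 6 LL and 1 of 5 WL arrays. Antigen presentation was 5 higher and 9 lower (median -0.075), and H2-D1, a class I heavy chain, was at 12.20, 12.67, 12.36, 13.05 and 12.87 in WL against 12.92, 13.05 and 13.33 in LL (-0.45 ± 0.18 SE). Probes of class I genes may share signal. Interferon-response genes were 16 of 22 higher (median 0.11), led by the GTPase Ifi47 (0.52 ± 0.16 SE), with Gbp2 (0.40 ± 0.23 SE, and 0.25 without LL replicate 1) and Oasl2 (0.33 ± 0.16 SE). Without LL replicate 1 the interferon median was 0.0072.

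Lymphocyte markers had only 7 of 22 members tested, 4 higher and 3 lower (median 0.27, 0.12 without LL replicate 1, 0.079 on slide 3 and 0.031 with the deposited values). Cd3e did not pass the detection filter. Immunoglobulin transcripts differed by 0.56 ± 0.31 SE for Igkc and 0.56 ± 0.31 SE for Ighm, with WL replicate 3 the lowest of 11 mice for both and WL replicates 2 and 4 the highest (0.36 to 0.93 for Igkc and 0.32 to 0.92 for Ighm when 1 mouse was left out), and the B-cell gene Ms4a1 differed by 0.32 ± 0.14 SE. Of 31 complement and coagulation genes, among which C1qa, C1qb and C1qc are also macrophage markers, 24 were higher in WL (median 0.083, 0.19 on slide 3 and 0.089 on slide 4). F11, coagulation factor XI, was at 10.68, 10.16, 10.12, 10.67 and 10.88 in WL and 9.38, 10.11 and 10.37 (lowest, median and highest) in LL (0.51 ± 0.17 SE), and C8a of the membrane attack complex differed by 0.53 ± 0.29 SE (0.33 without WL replicate 5). The score of this list was 0.041 to 0.20 in WL and -0.12 to 0.12 in LL. Acute-phase genes were 17 of 23 higher (median 0.059, and -0.12 on slide 4). Fibrosis and stellate cell genes were 16 of 24 higher (median 0.16, 0.014 on slide 3 and -0.044 on slide 4), with none under an unadjusted p of 0.05.

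Imprinted genes, which are expressed from 1 parental allele and are often followed in studies of maternal diet, had 8 of 20 members tested, 5 higher and 3 lower (median 0.048). Ndn, a growth suppressor expressed from the paternal allele, was at 5.57, 6.04, 5.30, 5.60 and 5.82 in WL and 4.87, 5.15 and 5.49 in LL (0.50 ± 0.16 SE, adjusted p = 0.900). Grb10, an adaptor that restrains insulin and growth factor signalling, differed by 0.32 ± 0.15 SE, and Cdkn1c, a maternally expressed cell-cycle inhibitor, by -0.26 ± 0.14 SE (-0.11 without WL replicate 5). Xenobiotic genes were 5 higher and 11 lower (median -0.070), with Cyp2c29 at -0.46 ± 0.22 SE. Ugt2b1, a glucuronosyltransferase and the 1 member under an unadjusted p of 0.05, differed by 0.48 ± 0.23 SE (0.27 without WL replicate 5), and the list's median was 0.034 without LL replicate 1 and WL replicate 5. Bile acid genes were 6 higher and 9 lower (median -0.029), and the canalicular bile salt pump Abcb11 differed by 0.28 ± 0.15 SE. Pericentral hepatocyte genes were 9 of 12 higher (median 0.043), among them the ammonium transporter Rhbg (0.51 ± 0.20 SE) and Cyp1a2 (0.41 ± 0.25 SE, and 0.22 without LL replicate 3), and periportal genes were 5 of 14 higher (median -0.034).

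Tissue carried over at dissection was looked for through pancreas markers. Of 25 exocrine pancreas genes 3 passed the detection filter, and Cela3b, Cpa1, Pnlip and Prss2 did not. Cela2a, a pancreatic elastase, was at 5.03, 4.63, 4.58, 5.12 and 8.15 in WL and 4.38, 4.69 and 5.61 (lowest, median and highest) in LL, so that WL replicate 5 stood alone (0.68 ± 0.40 SE, and 0.016 without it). Cela1 differed by 0.36 ± 0.22 SE. The summed intensity of the 3 genes was 5178 to 8066 in WL and 4534 to 6223 in LL, and the list's score was 1.48 in WL replicate 5 and at most 0.33 in the other 10 mice. Its median difference was 0.36, and 0.048 without WL replicate 5. WL replicate 5 also had the highest Egr1, an immediate early gene, at 6.86, 7.34, 7.41, 8.0 and 10.03 in WL against 6.30, 6.94 and 8.19 in LL (0.88 ± 0.40 SE, and 0.35 without WL replicate 5). What part these features of WL replicate 5 have in the values above was not tested.

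Whether the maternal diet difference was the same in offspring fed the western diet was asked by the interaction, (WW minus LW) minus (WL minus LL). No probe passed (limma, 0 of 14140, 0%, smallest adjusted p 0.101), and 1115 (7.89%) stood under an unadjusted p of 0.05. Without LL replicate 1 a probe of Ankra2 passed (adjusted p = 0.00827), and without WW replicate 1 one of Pigt did (0.0488). In western-fed offspring the 24 named genes had other values: 4 of the 12 genes higher in WL were also above 0 in WW minus LW, and 2 of the 12 lower were also below 0. Mfsd2a was -1.73 in WL minus LL and 0.28 ± 0.37 in WW minus LW, Arrdc3 was 1.33 and -0.21 ± 0.26, Cxcl1 was 1.26 and 0.13 ± 0.30, and Cdkn1a was -1.41 and 0.57 ± 0.41 (± SE). Since the 24 were chosen for WL minus LL, their WL minus LL values are extreme by choice, and their interaction p is not independent of it (adjusted p between 0.223 and 0.767). Wdr93 (0.49 and 0.23) kept a positive value in both. Over all 8822 genes, 48.1% had the same sign in both comparisons, and the correlation across genes, which are not independent and share slides, was -0.060 (Pearson) and -0.040 (Spearman). Over the 14140 probes the median absolute difference was 0.107 for WL minus LL and 0.134 for WW minus LW. Inflammatory mediators and macrophage markers had medians of 0.0065 and -0.044 in WL minus LL beside 0.39 and 0.49 in WW minus LW, and fibrosis genes 0.16 beside 0.49. The differences between these medians were not tested.

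**Figure D5:**
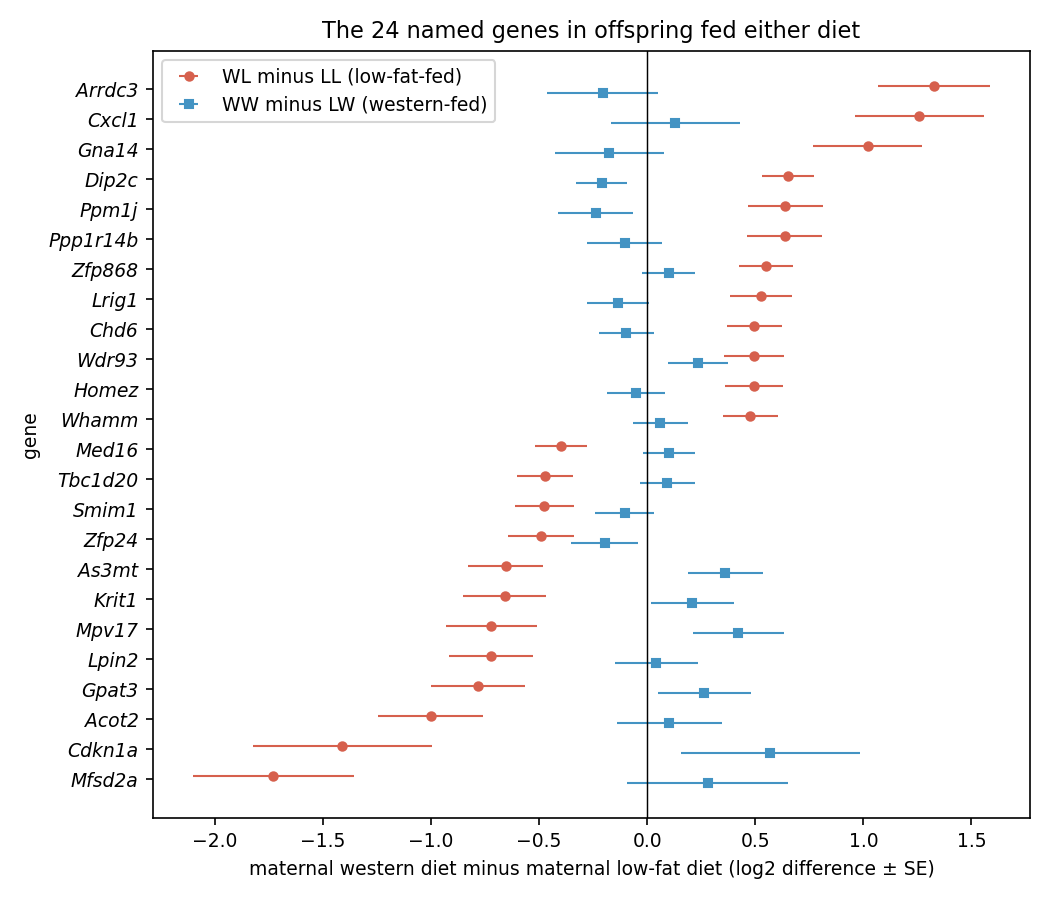
For each of the 24 named genes (y), the log2 difference between maternal western and maternal low-fat diet (x, with SE) is shown in low-fat-fed (circles) and western-fed offspring (squares). Genes were chosen on the circles, which range from -1.73 to 1.33, while the squares range from -0.24 to 0.57.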

How the data were processed

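Per the labels' protocols, RNA came from TriReagent extraction, its quality was read on an Experion system, and Illumina's TotalPrep kit was used for biotin labelling. The deposited table gives a background-subtracted intensity and a detection p-value for each of 45281 probes on each of 22 arrays, and the deposited series matrix gives a linear intensity normalized by the authors to array medians near 245 whose method is not stated there. It was used as an alternative, and log2 differences on its scale are not like for like with the main values.

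Intensities were processed with neqc of limma 3.58.1 (R 4.3.3, offset 16, quantile normalization over 22 arrays). Probes with detection p under 0.05 on 5 or more of the 11 LL and WL arrays were kept. Where a gene met this only with the group in which it was higher, its difference is not independent of the filter. Probe names were matched to RefSeq symbols (GRCm38.p6, names and promoters only), and 12672 of the 14140 tested probes (89.6%) had 1 gene. One mean per group was fitted by lmFit and eBayes over the 22 arrays, with p-values adjusted by Benjamini-Hochberg over all tested probes and called at 0.05. The fit was tested on simulated data. For genes undetected in 1 group, "at least" folds compare the bright group's mean with the dim group's mean of the higher of its own signal and the lowest detected signal per array. Depth on arrays is signal over background, and the number of arrays limits precision.

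Genes were named by rule: the 12 higher and 12 lower with the smallest p, up to 4 members of each list by smallest p, and a few fixed genes, among which Cpt1a and H19 were not detected enough to be tested. The text names a subset of these, picked after their values were seen. The members and lists were chosen with earlier results of these data known. Intensity differed between slides (median F 2.16 where 0.826 is expected), so slide was tried as a block. Replicate numbers, which come from the titles alone, were checked as possible pairs. Deviations of same-numbered WL and LL mice from their group means correlated at 0.299, 0.207, 0.135, 0.105 and 0.255, each over 0.1. Only 3 of the 5 correlated best with their own number (WL replicates 2 and 4 did so with LL replicate 3), so pairing was not established. The main test left the mice unpaired, and a replicate block was fitted as an alternative. Other alternatives were the deposited values, median scaling, offset 50, other detection filters, 1 probe per gene, the 11 arrays alone, array weights, robust eBayes with a trend, leaving out each mouse, and dropping both LL replicate 1 and WL replicate 5.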

Additional observations from a re-analysis of the deposited data

Results flagged for a closer look

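Values that stood far from the others of their group, by a gap test within LL or within WL, numbered 24 of 264 sets of values (9.09%), where chance gives about 1 in 20. WL replicate 5 accounted for 8 and LL replicate 1 for 7, LL replicate 3 for 3, WL replicate 3 for 2, and LL replicates 2 and 6 and WL replicates 2 and 4 for 1 each.

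WL replicate 5 was high in Cela2a (log2 intensity 8.15) and in the exocrine pancreas score (1.48), and low in the female-typical Cyp2b9 (4.69), in Pparg (6.66), in Pltp (5.95) and in the lipoprotein and sterol export score (-0.22). Its bile acid score was 0.16, above the other WL mice, and its probes lay a median of 0.249 from its group, against 0.186 or less for the others. LL replicate 1, the array with the lowest intensity, was low in Cyp2b9 (5.99), Pltp (6.16) and Gna14 (4.51) and in the ribosomal protein score (-0.17), and high in the lipoprotein and sterol export score (0.19). Its median rank correlation with the other 10 arrays was 0.938, and its probes lay a median of 0.340 from its group. Gna14 differed by 1.02 between WL and LL, and without LL replicate 1 by 0.85.

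LL replicate 3 was high in the scores of macrophage markers (0.72), the cell cycle (0.56) and NRF2 and glutathione genes (0.77). LL replicate 2 was high in Cyp17a1 (11.12), LL replicate 6 in the fatty acid oxidation score (0.30), WL replicate 2 in Wdr93 (6.53) and WL replicate 4 in the imprinted gene score (0.23). WL replicate 3 was low in Dip2c (5.32) and in the endothelial score (-0.16). What sets these mice apart was not tested.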

How the results depend on the processing

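WL against LL gave 0 passing probes under all alternatives other than leaving mice out (smallest adjusted p 0.0633 to 0.702) and without LL replicate 1 and WL replicate 5 together (0.177), and 0 to 2 when each of the 22 mice was left out. The replicate block gave 0 passing probes (smallest adjusted p 0.0633) in WL against LL and 0 in the interaction, so it changed no call, while 1038 probes stood under an unadjusted p of 0.05 in place of 738. The interaction gave 1 passing probe with slide as a fixed block (Ttc39b, adjusted p = 0.0381), 1 with array weights (Ankra2, 0.00549), 1 without LL replicate 1 and WL replicate 5 together (Ankra2, 0.0068), and 0 to 1 when each mouse was left out. The cause of these changes was not tested. The genes described were mostly named for a small p in this same contrast, and the alternatives refit the same mice, so a kept direction was largely built in. Of 88 genes, 84 kept the direction of WL minus LL in every alternative. The 4 others had differences near 0 or rested on 1 mouse: Cd68 was -0.00042 with the 11 arrays normalized alone, -0.017 with the deposited values, -0.0020 with offset 50, -0.083 with slide as a fixed block, -0.047 with slide as a random block and -0.13 to 0.16 when mice were left out. Saa1 was 0.043 with the replicate block and -0.32 to 0.29 when mice were left out, Ppara -0.18 to 0.012, and Cyp2b9 -1.27 to 0.67. Of 40 list medians, 19 kept their sign in all 36 alternatives. Each moved by less than the larger SD of its score between mice, but this bound is wide. For female-biased genes it was 0.88, while their median reached -1.06 without LL replicate 1. Leaving out 1 of the 11 mice moved 38 of the 40 medians by over 1.5 times, a ratio that small shifts exceed where a median lies near 0. Few mice, a single LL array on slide 1 and no LL array on slide 2 limit these values, differences near background are compressed, and 274 probes had an interval reaching 1 log2 unit.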

Other observations

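Housekeeping genes and endoplasmic reticulum stress genes had medians close to that of all genes, while those of heat shock and of NRF2 and glutathione genes lay further below it. Cytosolic ribosomal proteins were 18 higher and 12 lower in WL (median 0.024), oxidative phosphorylation genes 22 higher and 14 lower (median 0.018), and proteasome subunits 12 in each direction. Endoplasmic reticulum stress genes were 11 higher and 9 lower (median 0.018), with the chaperone Hyou1 at 5.10, 5.65, 4.96, 5.53 and 5.23 in WL and 4.51, 4.78 and 5.38 (lowest, median and highest) in LL (0.45 ± 0.18 SE, detected on 2 of 6 LL arrays). Heat shock genes were 5 higher and 8 lower (median -0.079), and NRF2 and glutathione genes 6 higher and 12 lower (median -0.12, and 0.026 without WL replicate 5). Of 11 cell cycle genes 7 were higher, and besides Cdkn1a the ribonucleotide reductase subunit Rrm1 was lower in value (-0.36 ± 0.15 SE).

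Of other tissues, 4 of 11 erythroid genes were tested and all 4 were higher in WL (median 0.19), including Alas2, the first enzyme of heme synthesis in red cell precursors, at 10.62, 9.82, 10.47, 10.19 and 10.61 in WL and 9.33, 10.08 and 10.34 in LL (0.39 ± 0.18 SE). Of 12 adipose genes 6 were tested (4 higher), and Adipoq did not pass the detection filter. Lipe, hormone-sensitive lipase, was at 5.15, 5.30, 5.35, 5.24 and 5.19 in WL, all above the LL values of 4.51, 4.81 and 4.94 (0.48 ± 0.15 SE). It was detected on only 2 of 6 LL arrays, so it passed the detection filter only with the WL mice. The probe that shared the smallest adjusted p with Dip2c carries a name that matched no current symbol and differed by 0.66 ± 0.12 SE.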
